A study of Bos taurus with 30 samples.

Results

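Skin of tick-susceptible cattle at 24 h of infestation was compared with skin of such cattle before infestation (0 h) over 9 arrays, 6 at 24 h and 3 at 0 h. These were all arrays whose titles name susceptible skin at 24 h or at 0 h, 9 of the 30 arrays of the study. All 24016 non-control probe sets were considered. The 24 h arrays came from animals 8, 9, 10, 11, 12 and 13 and the 0 h arrays from animals 9, 10 and 11, so that 3 animals were in both groups and 3 were at 24 h only. All animals were of an F2 cross between the zebu breed Gyr (Bos indicus) and the taurine breed Holstein (Bos taurus). Both groups share the susceptible phenotype and differ in the time of the biopsy. The other arrays were 5 of susceptible skin at 48 h, and 5, 6 and 5 of resistant skin at 0 h, 24 h and 48 h, from 7 susceptible and 6 resistant animals in all. A biopsy of the feeding site mixes all cell types of the skin, so that fewer cells of a type and less RNA per cell cannot be told apart in any value below.

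Values are log2 signals of an Affymetrix bovine array, where a probe set is a group of short probes for 1 transcript and a gene may have more than 1. A step of 1 is a doubling. A probe set was tested if its signal was at or above the median of its array in at least 3 of the 30 arrays, which kept 13809 probe sets, 8599 of them with 1 gene symbol (7016 genes). Array medians lay between 7.17 and 7.40. Of 52 cell type markers, 44 were named on the array and 36 were kept. KRT5 and KRT14 of keratinocytes and COL1A1, COL3A1 and DCN of fibroblasts were above the array median in all 9 arrays. Hemoglobin genes HBA and HBB, the B cell gene CD79A, the muscle myosin MYH1 and the sweat gland channel AQP5 were not kept. The 3′ minus 5′ difference of the actin control, a measure of RNA quality, was 1.04 to 4.59 at 24 h and 1.46 to 3.16 at 0 h, and the groups overlapped. The same difference of the GAPD control was 1.49, 1.13 and 1.24 in the 24 h arrays of animals 11, 12 and 13 and 0.493 to 0.664 in those of animals 8, 9 and 10, against 0.594 to 0.717 at 0 h. It was thus higher in 3 of the 6 arrays at 24 h than in any at 0 h, and its part in the results below was not tested. Probe sets that differ between animals placed the 0 h arrays of susceptible animals 9, 10 and 11 with the later arrays of their own number, but 3 of the 5 resistant 0 h arrays with another resistant number, so resistant arrays are compared as groups only, without pairing.

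Skin is the organ on which ticks feed. A tick cuts through the epidermis into the dermis, keeps a feeding lesion open and secretes saliva that acts on clotting, pain and host immunity. Basal keratinocytes renew the epidermis and are anchored to the basement membrane, sebaceous glands and hair follicles open onto it, and T cells, antigen-presenting cells, mast cells and recruited neutrophils make up the local immune response.

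No probe set passed the test. With limma, 0 of 13809 probe sets (0.0%) had an adjusted p under 0.05 for 24 h against 0 h, the smallest adjusted p was 0.9996, and 318 probe sets (2.3%) had an unadjusted p under 0.05, where 690.45 would be 5% of those tested. Of these, 134 were higher at 24 h (0.97% of probe sets tested) and 184 were lower (1.33%). This split depended on the scaling. The higher ones were 42.1% of the 318, but 65.8% after each array was centred on its median (196 higher and 102 lower) and 50% after quantile normalization. The median log2 difference over all probe sets was -0.0121, with 47.4% above 0 and 52.6% below. A difference of over 1 log2 unit was seen in 110 probe sets, 33 higher and 77 lower at 24 h. The standard error (SE) of a difference had a median of 0.224, and its 95% interval reached, in the median, 0.459 to either side. In data simulated with the spread of these arrays, the test called 61 of 100 probe sets that had been shifted by 1 log2 unit, and 98 of 100 that had been shifted by 2. The simulated noise was independent between arrays, with no term for the animal. These counts therefore check the fit only and do not give its power in these data. Each 24 h array lay above each 0 h array in 105 probe sets (0.76%) and below each in 102 (0.739%), or 207 in either direction (1.5%).

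**Figure D1:**
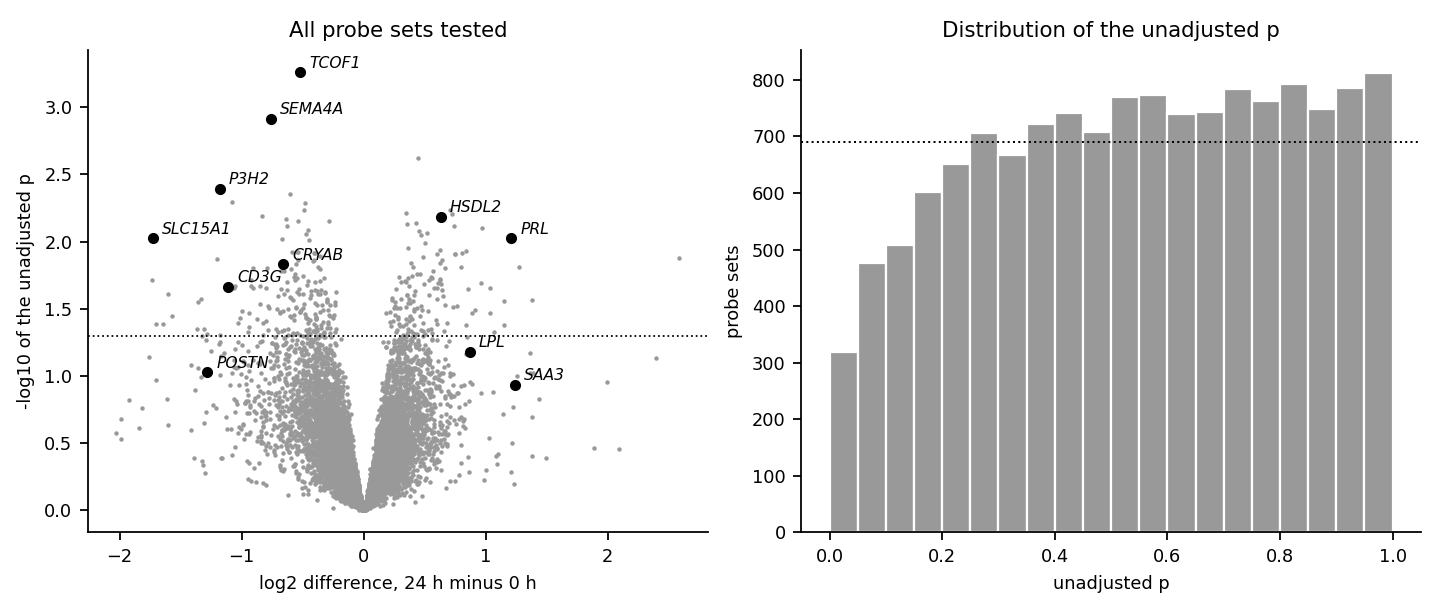
Left, the log2 difference of each of 13809 probe sets, 24 h minus 0 h (x axis), against the negative log10 of its unadjusted p (y axis); the dotted line marks an unadjusted p of 0.05 and 11 genes named in the text are labelled. Right, the number of probe sets in 20 equal bins of the unadjusted p, with a dotted line at 690.45; the first bin holds 318 and lies below the line.

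Among genes with 1 symbol, the smallest p belonged to TCOF1, whose product treacle acts in ribosomal RNA synthesis. Its log2 signal was 8.04, 8.49 and 8.69 (lowest, median and highest of 6 arrays) at 24 h, and 8.91, 8.98 and 8.97 in the 0 h arrays of animals 9, 10 and 11. Every 24 h array lay below every 0 h array. The difference was -0.52 ± 0.13 (SE; unadjusted p = 0.000548, limma adjusted p = 0.9996). A second probe set of TCOF1 differed by 0.05, so the probe sets of this gene did not agree.

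SEMA4A, a semaphorin of leukocytes and epithelia, had the next smallest p. Its log2 signal was 6.77, 7.31 and 7.67 (lowest, median and highest) at 24 h, against 7.72, 7.93 and 8.27 at 0 h, and the groups did not overlap. It averaged 7.21 ± 0.36 at 24 h (SD, n = 6) and 7.97 ± 0.28 at 0 h (SD, n = 3), a difference of -0.76 ± 0.21 (SE) or a linear ratio of 0.592. Within animals 9, 10 and 11 the 24 h array differed by -0.90, -1.16 and -0.89. SEMA4A was below the array median in 3 of the 6 arrays at 24 h and in 0 of the 3 at 0 h.

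P3H2, a prolyl hydroxylase of collagen, averaged 7.77 ± 0.65 at 24 h (SD, n = 6) and 8.95 ± 0.60 at 0 h (SD, n = 3), with a difference of -1.18 ± 0.38 (SE). The groups overlapped: animal 9 was at 8.55 at 24 h and 8.28 at 0 h, while animals 10 and 11 differed by -1.81 and -1.15. SLC15A1, a transporter of small peptides, was below the array median in all 6 arrays at 24 h and in 1 of 3 at 0 h. It had values of 4.88, 5.74 and 7.10 (lowest, median and highest) at 24 h and of 6.46, 8.37 and 7.78 at 0 h, with overlap through animal 8. Its difference of -1.73 ± 0.62 (SE) was the widest of the 20 genes named by smallest p. EXT1, which builds heparan sulfate chains, and GPC1, a glypican that carries them, differed by -0.48 ± 0.16 and -0.49 ± 0.16 (SE). EXT1 rested on 2 arrays at 0 h: it lay at 8.37 to 8.72 at 24 h and at 8.60, 9.47 and 9.25 at 0 h, and differed by -0.30 without animal 10 at 0 h and by -0.74 without animal 9. CXCR4, the receptor for the chemokine CXCL12, averaged 7.55 ± 0.36 at 24 h (SD, n = 6) and 8.18 ± 0.27 at 0 h (SD, n = 3), and only animal 8 at 24 h, at 7.98, reached into the 0 h range of 7.87 to 8.39. UBE2Z, a ubiquitin-conjugating enzyme, was the tightest of the lower genes, at 10.05 to 10.18 in the 6 arrays at 24 h and 10.23, 10.53 and 10.45 at 0 h, with no overlap. DLGAP4 (-0.47 ± 0.17 SE, no overlap) and the centriole gene SPICE1 (-0.46 ± 0.16 SE) complete the 10 lower genes.

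The 10 higher genes of smallest p had unadjusted p of 0.00585 to 0.0102, against 0.000548 to 0.00945 for the 10 lower ones. CMKLR2, a receptor for chemerin, was at 7.77, 8.10 and 8.50 (lowest, median and highest) at 24 h and at 7.38, 7.17 and 7.55 at 0 h. The groups did not overlap, and the difference was 0.72 ± 0.24 (SE). HSDL2, a peroxisomal enzyme of lipid metabolism, was at 9.91, 10.23 and 10.49 at 24 h and at 9.75, 9.76 and 9.23 at 0 h, again without overlap (0.63 ± 0.21 SE). TUBGCP3, a part of the complex that starts microtubules, differed by 0.64 ± 0.22 (SE), with 9.24 as its lowest 24 h value and 9.19 as its highest 0 h value, and by 0.40 without animal 11 at 0 h. ST13, a cochaperone of heat shock proteins, lay at 10.78 to 11.22 at 24 h and was almost constant at 0 h, at 10.51, 10.54 and 10.54 (0.35 ± 0.12 SE). Another probe set of ST13 differed by 0.08. The splicing-associated gene GPATCH1 (0.71 ± 0.24), the importin KPNA1 (0.45 ± 0.16), the quality-control mannosidase EDEM3 (0.52 ± 0.18), the mitochondrial kinase NADK2 (0.47 ± 0.17) and the chaperone partner CDC37L1 (0.50 ± 0.18 SE) overlapped between the groups.

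PRL, the hormone prolactin, had the largest difference of these 10 higher genes, at 1.21 ± 0.43 (SE), and a single array decided it. It was at 8.94 to 9.92 at 24 h, against 6.62, 9.48 and 8.97 at 0 h in animals 9, 10 and 11. Without the 0 h array of animal 9 the difference was 0.34. A second probe set of PRL differed by -0.02.

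**Figure D2:**
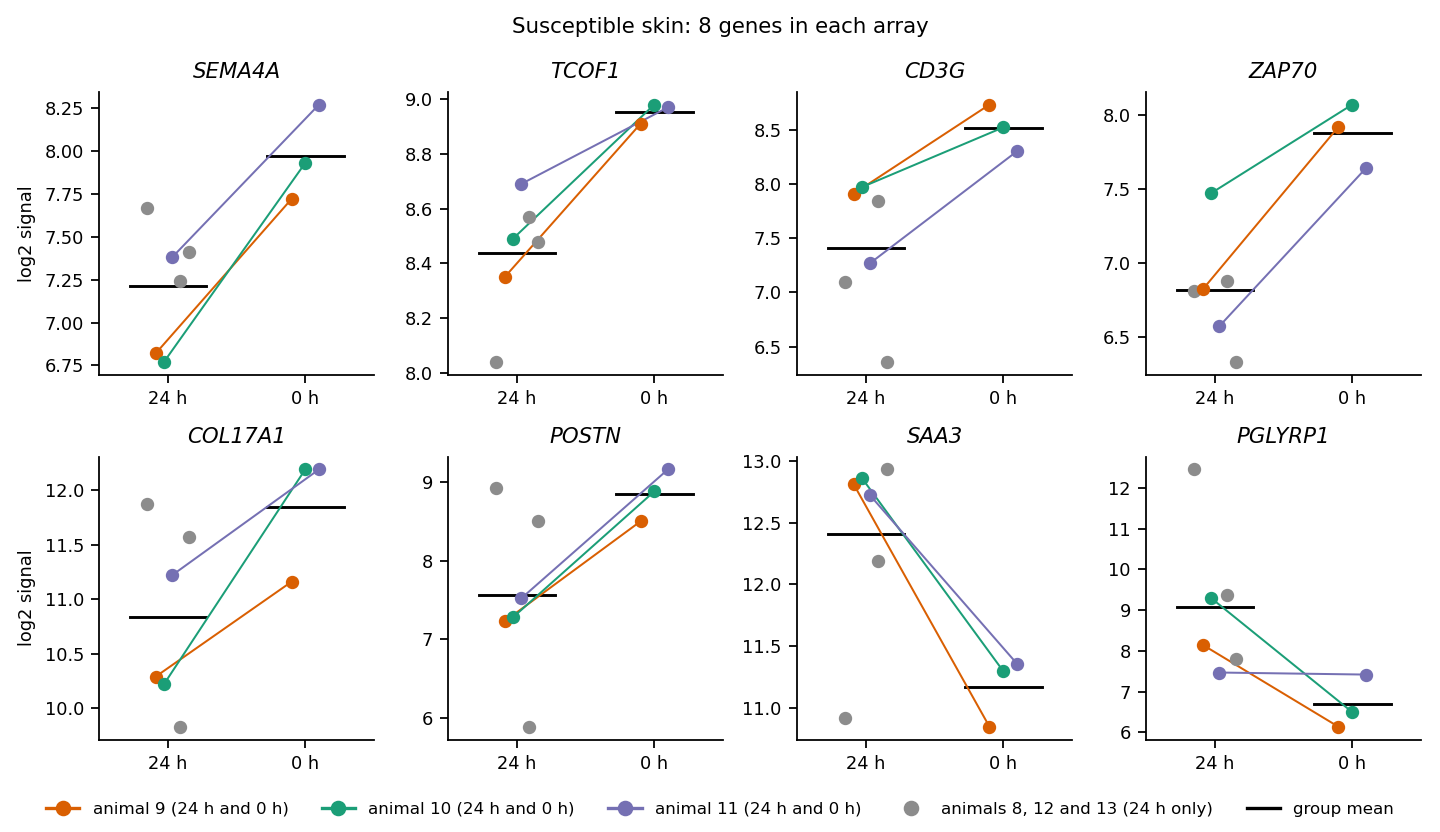
Log2 signal (y axes) of 8 genes in each of the 6 arrays at 24 h and the 3 arrays at 0 h of susceptible skin; lines join the arrays of animals 9, 10 and 11, grey points are animals sampled at 24 h only, and black bars are group means. SEMA4A, TCOF1, CD3G and ZAP70 were lower in every 24 h array than in any 0 h array, PGLYRP1 was higher, and SAA3 was higher in 5 of 6.

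Genes were also read in 43 lists of cell types and pathways, of which 34 had at least 5 measured genes, each gene through its kept probe set of highest mean. In 6 of the 34 any gene had an unadjusted p under 0.05, and in none did a gene pass the test. The T cell list was lower at 24 h in most genes: of its 12 measured genes 11 were below 0, where 52.6% of all probe sets were. Its median difference was -0.48, and 2 of the 12 had an unadjusted p under 0.05 (2.3% of all probe sets did). CD3G, a chain of the T cell receptor complex, was at 6.36, 7.56 and 7.97 (lowest, median and highest) at 24 h and at 8.73, 8.52 and 8.30 at 0 h, a difference of -1.11 ± 0.46 (SE). ZAP70, the kinase that the receptor activates, was at 6.33, 6.82 and 7.47 at 24 h and at 7.92, 8.07 and 7.64 at 0 h (-1.06 ± 0.44 SE). At 24 h ZAP70 was below the array median in 5 of 6 arrays and CD3G in 2 of 6, and at 0 h both in 0 of 3. For both, each 24 h array lay below each 0 h array and each of the 3 animals was lower at 24 h. The chain CD3D (-0.72 ± 0.37 SE) and the adhesion molecule CD2 (-0.74 ± 0.39 SE) overlapped, because animal 9 at 24 h reached 8.28 and 7.21. CD2 was below the array median in all 6 arrays at 24 h and in 2 of 3 at 0 h. The signalling kinase LCK (-0.45 ± 0.28 SE), CD3E (-0.24 ± 0.23 SE) and CD247 (-0.16 ± 0.26 SE) had 95% intervals that include 0. LCK and CD247 were chosen after their values were seen. Of the T cell genes, CD4, CD8B, CD5, CD6, CD28, ICOS and CTLA4 did not pass the filter on low signal.

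The mean log2 signal of the list T cells and T cell receptor signalling was 7.31, 7.62 and 8.11 (lowest, median and highest) at 24 h and 8.31, 8.16 and 8.11 at 0 h. The animals sampled at 24 h only, at 7.31 to 7.59, were lower than the 3 animals with both times, at 7.65 to 8.11. Within animals 9, 10 and 11 the median of the list differed by -0.17, -0.29 and -0.39, less than the -0.48 over all arrays. Of its 12 genes 3 were lower in all 3 animals (15.8% of all probe sets were).

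Class II antigen presentation, the display of peptides to helper T cells, had the lowest median of the 34 lists. All 10 measured genes were below 0 (52.6% of all probe sets were), with a median of -0.56. However, 0 had an unadjusted p under 0.05 and the widest differences had large errors. BOLA-DMA, which loads peptides, averaged 7.85 ± 0.42 at 24 h (SD, n = 6) and 8.46 ± 0.11 at 0 h (SD, n = 3). BOLA-DRA, the alpha chain of the DR molecule, averaged 11.37 ± 0.48 at 24 h (SD, n = 6) and 11.90 ± 0.15 at 0 h (SD, n = 3). BOLA-DQA1 differed by -1.33 ± 0.65 (SE). Of its variance around the group means 70.5% lay between animals, which are not the same in the groups. The median of this share over the list was 56.4%, and with few arrays per animal part of it arises without an animal effect. Within animals 9, 10 and 11 the list median was -0.37, 0.02 and -0.27. These 3 genes were chosen after their values were seen. Class I genes centred on -0.09 over 13 genes.

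The cytokine and chemokine list was split almost evenly, with 5 genes above and 6 below 0 of 11. Its median was -0.15, or -0.05 without animal 11 at 0 h. Of the 11 genes 1 had an unadjusted p under 0.05 (2.3% of all probe sets did). Its members of smallest p were chemokines that attract leukocytes, which averaged lower at 24 h, and the acute-phase gene SAA3, which averaged higher. CCL8, a monocyte chemokine, was at 6.65, 6.77 and 7.52 at 24 h and at 7.38, 7.76 and 7.46 at 0 h (-0.66 ± 0.30 SE), below the array median in 5 of 6 arrays at 24 h. Animal 10 at 24 h was its only array inside the 0 h range. CCL4 differed by -0.71 ± 0.36 (SE), or -0.39 without animal 10 at 0 h, and CCL5 by -0.97 ± 0.57 (SE), both with overlap. SAA3, an acute-phase apolipoprotein made in inflamed tissue, was at 10.92, 12.76 and 12.93 (lowest, median and highest) at 24 h and at 10.85, 11.30 and 11.36 at 0 h. It differed by 1.24 ± 0.76 (SE), a linear ratio of 2.36. All arrays at 24 h but that of animal 8 lay above the 0 h arrays, and animals 9, 10 and 11 were higher at 24 h by 1.95, 1.57 and 1.36. IL1A, IL1B, IL6, TNF and CXCL8 did not pass the filter. IL1B lay at 4.63 to 5.97 at 24 h and at 6.11, 5.04 and 5.24 at 0 h, and TNF at 4.38 to 5.70 at 24 h and at 5.51, 5.39 and 5.51 at 0 h, all below the array medians.

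Of the neutrophil genes, 3 of 5 were above 0 (47.4% of all probe sets were). Their median of 0.13 turned to -0.03 without animal 13 at 24 h and was 0.47 without animal 11 at 0 h. PGLYRP1, a granule protein that binds bacterial cell walls, was at 7.47, 8.72 and 12.45 (lowest, median and highest) at 24 h and at 6.14, 6.50 and 7.42 at 0 h, without overlap. Its difference of 2.40 had an SE of 1.29. Animal 8 alone reached 12.45, and animal 11 differed by 0.05 between its arrays. S100A9, a calgranulin, averaged 7.81 ± 0.53 at 24 h (SD, n = 6) and 7.11 ± 0.76 at 0 h (SD, n = 3). The difference of 0.70 was 0.32 without animal 10 at 0 h and 1.08 without animal 11, while its partner S100A8 differed by -0.06 ± 0.46 (SE). PGLYRP1 was chosen after its values were seen. Of the mast cell markers TPSB2 and FCER1A were below the array median in all 9 arrays. KIT, which melanocytes also express, differed by -0.33 ± 0.47 (SE), and by 0.13 in a second probe set. The macrophage markers CD68 (-0.12 ± 0.37), CD14 (-0.03 ± 0.37) and AIF1 (0.01 ± 0.27 SE) differed by less than their errors, and the list of 13 macrophage genes had a median of -0.15, which was -0.41 without animal 11 at 0 h and 0.04 without animal 10.

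The basal keratinocyte list was below 0 in each gene. All 8 measured genes were below 0 (52.6% of all probe sets were), the median was -0.50, and 6 of the 8 were lower at 24 h in all 3 animals with both times (15.8% of all probe sets were). COL17A1, the collagen that anchors basal cells to the basement membrane, was at 9.83, 10.75 and 11.87 (lowest, median and highest) at 24 h and at 11.16, 12.19 and 12.19 at 0 h. Its difference was -1.02 ± 0.46 (SE, unadjusted p = 0.0368, limma adjusted p = 0.9996), and a second probe set differed by -0.73. KRT15, a keratin of the basal layer and the follicle bulge, differed by -1.03 ± 0.58 (SE). KRT5 averaged 13.99 ± 0.64 at 24 h (SD, n = 6) and 14.54 ± 0.30 at 0 h (SD, n = 3), and KRT14 averaged 13.25 ± 1.10 at 24 h (SD, n = 6) and 14.01 ± 0.43 at 0 h (SD, n = 3). The difference of KRT5 was -0.55 in this probe set but -0.04 in a second one. The laminin chain LAMB3 differed by -0.45 ± 0.32 (SE), by -0.17 without animal 10 at 0 h and by -0.83 without animal 9. The Basal keratinocytes list had means of 11.83 to 11.98 in the 24 h arrays of animals 8, 11 and 13 and of 10.86 to 11.12 in those of animals 9, 10 and 12, against 11.57, 12.33 and 12.12 at 0 h. The median was -0.35 without the 0 h array of animal 10 and -0.77 without that of animal 9.

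Genes of the upper epidermis had a smaller median difference. The differentiation list had a median of -0.24 over 7 genes, of which 1 had an unadjusted p under 0.05 (2.3% of all probe sets did). CST6, a cystatin of the cornifying layers, was at 9.89, 11.06 and 13.57 at 24 h and at 11.15, 14.00 and 13.73 at 0 h. It differed by -1.70 ± 0.80 (SE), a linear ratio of 0.307, while a second probe set differed by -0.22. DMKN, a secreted epidermal protein, differed by -0.77 ± 0.42 (SE). Without the low 0 h array of animal 9 the difference of CST6 was -2.61 and that of DMKN -1.11. Without the 0 h array of animal 10 they were -1.18 and -0.49. The desmosomal cadherin DSG1 (-0.17 ± 0.26 SE), the cross-linking enzyme TGM1 (-0.24 ± 0.36 SE) and the suprabasal keratin KRT10 (0.17 ± 0.73 SE) were nearer to 0 relative to their errors. Without animal 12 at 24 h the median of the list was -0.05. Of 12 keratinocyte junction genes 11 were below 0 (52.6% of all probe sets were) and 6 were lower in all 3 animals (15.8% of all probe sets were). Their median was -0.22, or -0.09 without animal 9 at 24 h. All 6 wound keratinocyte genes, KRT6B and KRT17 among them, were below 0 as well (52.6% of all probe sets were). Their median was -0.30, or -0.16 without animal 12 at 24 h. KRT6B and KRT17 were chosen after their values were seen.

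Genes of the sebaceous gland and of fat cells lay on opposite sides of 0. In the sebaceous and lipid synthesis list 12 of 13 genes were below 0 (52.6% of all probe sets were), and 0 had an unadjusted p under 0.05. The median was -0.53, and the medians within animals 9, 10 and 11 were -0.43, -0.34 and -0.41. FASN, the fatty acid synthase, averaged 12.59 ± 0.45 at 24 h (SD, n = 6) and 13.05 ± 0.16 at 0 h (SD, n = 3), read from a probe set whose transcript cluster also carries a CA2 annotation. FAR2, which makes the fatty alcohols of sebum waxes, varied most: it was at 10.87 in animal 8 and at 5.80 to 6.70 in the other 5 animals at 24 h, and at 5.64, 10.51 and 9.89 at 0 h. Its difference of -1.61 was -0.69 without animal 10 at 0 h and -3.13 without animal 9. SCD, the stearoyl desaturase, differed by -0.11 ± 0.32 (SE). The adipocyte list lay the other way, with 6 of 8 genes above 0 (47.4% of all probe sets were). Its median was 0.37, with within-animal medians of 0.67, 0.30 and 0.70. Of its 8 genes 4 were higher in all 3 animals (13.3% of all probe sets were). LPL, the lipase that releases fatty acids from circulating lipoproteins, was at 8.52, 9.16 and 10.34 at 24 h and at 8.30, 8.20 and 8.75 at 0 h. It differed by 0.87 ± 0.46 (SE), and was chosen after its values were seen. FABP4, the fatty acid carrier that marks adipocytes, differed by -0.01 ± 0.33 (SE), and by 0.42 in a second probe set. ADIPOQ did not pass the filter. Without the 0 h array of animal 9 the median of the adipocyte list was 0.15.

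In the dermis, collagens and matrix genes had a median of -0.22, or -0.37 without animal 9 at 24 h. Of 23 genes 16 were below 0 (52.6% of all probe sets were). At an unadjusted p under 0.05 was 1 of the 23, near the 2.3% of all probe sets. Within the 3 animals, however, the medians were 0.01, 0.10 and 0.17. ELN, elastin, was at 6.50, 6.82 and 7.32 at 24 h and at 7.51, 8.08 and 7.06 at 0 h (-0.68 ± 0.31 SE, or -0.42 without animal 10 at 0 h), and was below the array median in all 6 arrays at 24 h. POSTN, periostin, a matrix protein of remodelling tissue, was at 5.89, 7.40 and 8.93 at 24 h and at 8.50, 8.88 and 9.16 at 0 h. It differed by -1.28 ± 0.74 (SE), and each of animals 9, 10 and 11 was lower at 24 h, with differences of -1.27, -1.59 and -1.64. COL6A2 differed by -0.62 ± 0.39 (SE), or -0.40 without animal 9 at 0 h, and COL4A1, a basement membrane collagen, by -0.27 ± 0.16 (SE). COL6A2 was below the array median in all 6 arrays at 24 h and in 2 of 3 at 0 h. COL1A2 and COL3A1 stood apart in animal 12 at 24 h, at 12.62 and 12.78, against 14.35 to 15.19 and 14.69 to 15.45 in the other 24 h arrays. Without that array their differences of -0.56 and -0.54 were -0.20 and -0.16. Endothelial genes had a median of 0.02 over 13 genes, with PECAM1 at 0.15 ± 0.28 and CDH5 at 0.01 ± 0.31 (SE).

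Smooth muscle genes went opposite ways in the animals with both times. The median over 13 genes was 1.02 in animal 9, -0.83 in animal 10 and -1.19 in animal 11. It was -0.26 over all arrays, -0.05 without the 0 h array of animal 11 and -0.50 without the 24 h array of animal 9. ACTA2, smooth muscle actin, was at 11.42, 11.94 and 13.53 at 24 h and at 12.07, 12.46 and 13.53 at 0 h. Its difference of -0.53 was -0.10 without animal 11 at 0 h. Melanocyte genes showed the spread between animals too: TYRP1, a pigment enzyme, ran between 6.34 and 12.70 at 24 h and was 6.60, 8.96 and 10.81 at 0 h, so that its difference of 2.10 had an SE of 2.20 and was 1.0 without animal 9 at 0 h. Animal 9 was the lowest at both times.

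**Figure D3:**
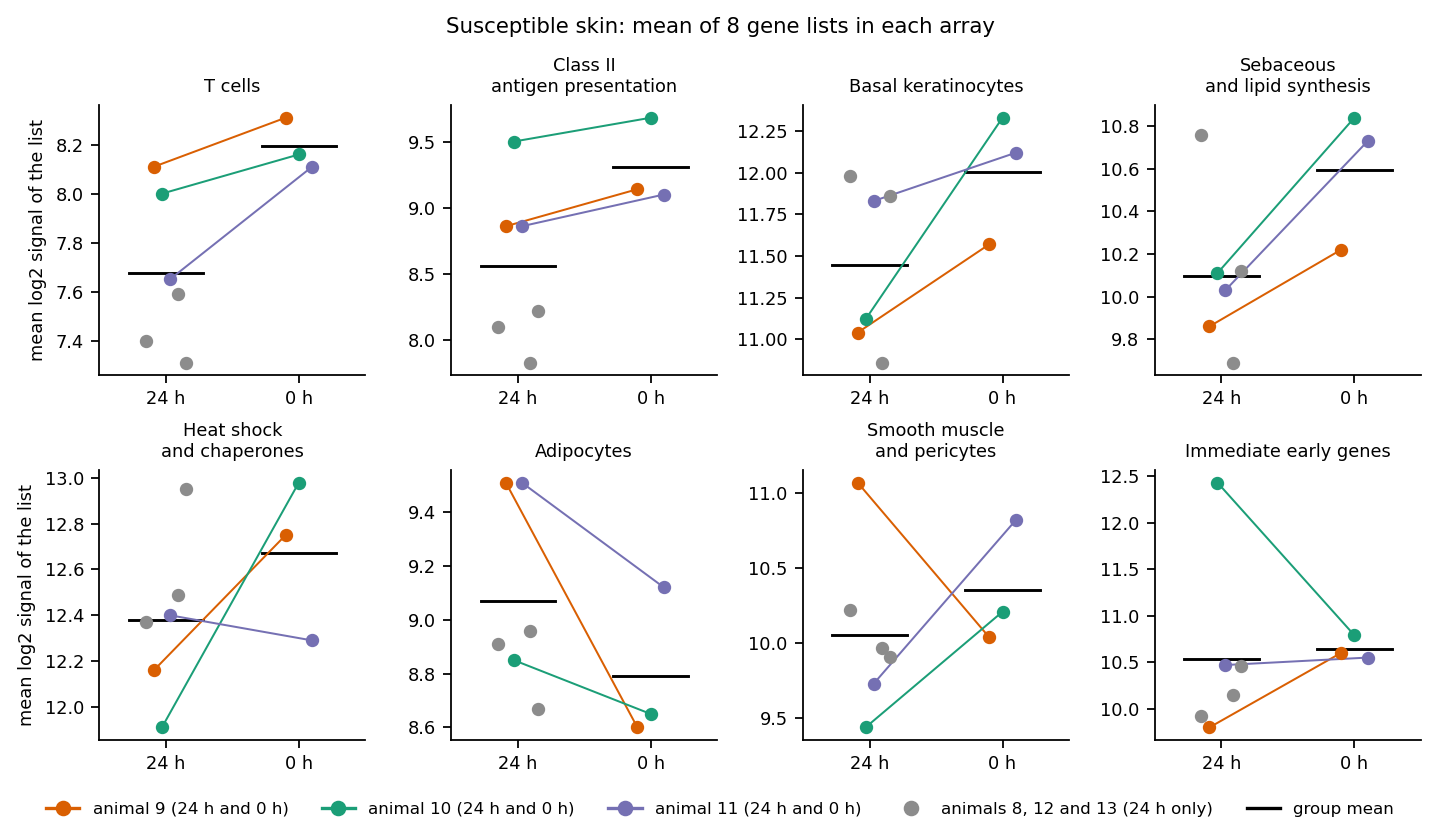
Mean log2 signal (y axes) of the measured genes of 8 lists in each array of susceptible skin at 24 h and 0 h, with the same symbols as in the plot of single genes. The T cell, class II, basal keratinocyte and sebaceous lists were lower at 24 h in each of animals 9, 10 and 11, the adipocyte list was higher in each, and the smooth muscle and immediate early lists went both ways.

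Heat shock genes were mostly lower at 24 h. In the heat shock list 13 of 14 genes were below 0 (52.6% of all probe sets were) and 2 had an unadjusted p under 0.05 (2.3% of all probe sets did), with a median of -0.26. CRYAB, a small heat shock protein, was at 8.87, 9.64 and 9.97 at 24 h and at 9.65, 10.83 and 10.19 at 0 h (-0.66 ± 0.25 SE, or -0.36 without animal 10 at 0 h). HSPB1, another, averaged 13.74 ± 0.35 at 24 h (SD, n = 6) and 14.20 ± 0.27 at 0 h (SD, n = 3), and its difference of -0.46 was -0.30 without animal 10 at 0 h. The constitutive chaperone HSPA8 differed by -0.31 ± 0.23 (SE), or -0.18 without animal 9 at 0 h, and the cochaperone BAG3 by -0.57 ± 0.51 (SE), or -0.10 without animal 10 at 0 h. The median of the list moved with single 0 h arrays: it was -0.11 without that of animal 10 and -0.42 without that of animal 11, and within animals 9, 10 and 11 it was -0.54, -0.67 and 0.05. Immediate early genes, which respond to stimuli within minutes, had a median of -0.07 over 13 genes, but animal 10 at 24 h had a mean over the Immediate early genes of 12.43, against 9.80 to 10.47 in the other 24 h arrays and 10.60, 10.79 and 10.55 at 0 h. In that array FOS, chosen after its values were seen, was at 14.44. Without it the list median was -0.46.

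Of 16 type I interferon response genes 14 were below 0 (52.6% of all probe sets were), with a median of -0.18, or -0.08 without animal 13 at 24 h. The median of 7 interferon-gamma genes was -0.40 over all arrays, and -0.60 to -0.28 when single arrays were left out. It was -0.09 with the animal as a fixed block and 0.07 in the 3 animals with both times alone. The reason for this shift was not tested. Within animal 10 the interferon-gamma median was 1.12, against -0.05 in animal 9 and -0.11 in animal 11. IFNG itself did not pass the filter. Cytosolic ribosomal protein genes were below 0 in 56 of 58 genes (52.6% of all probe sets were). Their median was only -0.09, and it was 0.01 after quantile normalization. Complement and coagulation genes had medians within 0.02 of 0, and cell cycle genes one of 0.09.

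**Figure D4:**
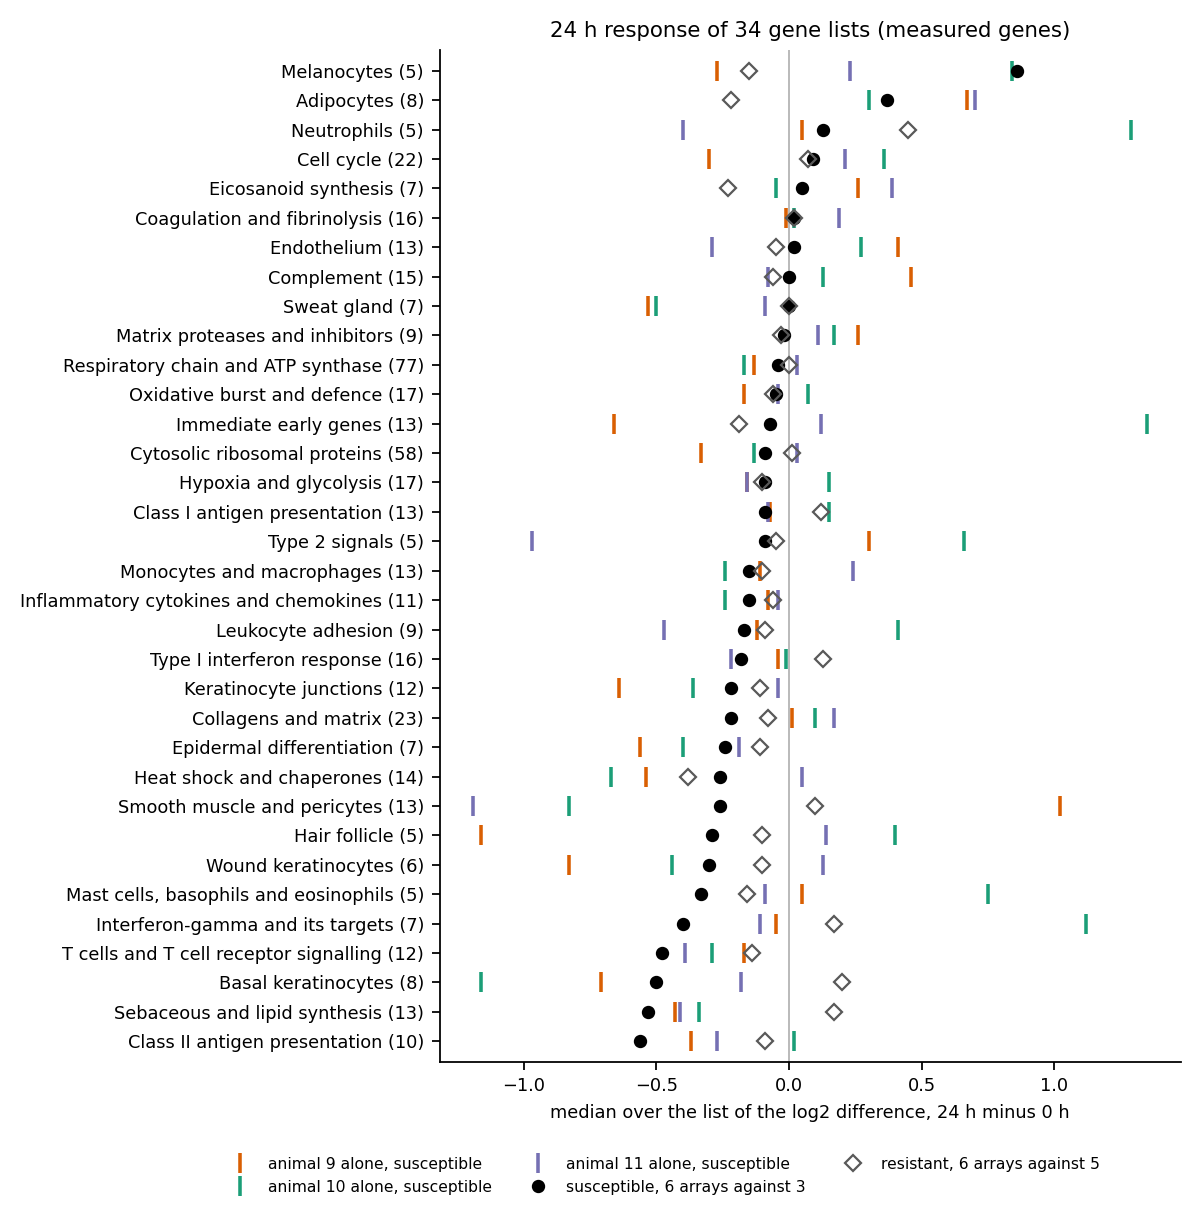
Median over each of 34 gene lists (rows, with the number of measured genes) of the log2 difference, 24 h minus 0 h (x axis): filled circles, susceptible skin over all arrays; coloured ticks, each of the 3 susceptible animals with both times alone; open diamonds, resistant skin. The lowest susceptible medians were those of class II antigen presentation (-0.56), sebaceous and lipid synthesis (-0.53), basal keratinocytes (-0.50) and T cells (-0.48), and in the last 3 of these all 3 animals lay below 0.

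The 3 animals with both times allow a comparison within animals. Each of their 0 h arrays correlated best, in its deviations over 13809 probe sets, with the 24 h array of the same number (r = 0.44, 0.15 and 0.31, against at most 0.13, 0.07 and 0.20 with another animal), so the numbers were taken to pair the samples. In a limma fit of these 6 arrays with the animal as a term, 0 probe sets passed (smallest adjusted p = 0.13). An unadjusted p under 0.05 was seen in 1013 (7.34%), against 318 over all arrays. The paired fit has far fewer residual degrees of freedom than the 24 of the fit over all arrays. Its count and its SEs are therefore not directly comparable with those of that fit. SAA3 had the smallest p, with a paired difference of 1.63 ± 0.15 (SE, n = 3 animals, limma adjusted p = 0.13). Other genes near the top, chosen after their values were seen, were higher THBS2, a matrix thrombospondin (1.04, 1.61 and 1.42 in animals 9, 10 and 11), ACKR3, a scavenging chemokine receptor (0.69, 1.17 and 1.23), IGFBP6, which binds insulin-like growth factors (0.70, 0.72 and 0.87), and the neurotrophin receptor NTRK2 (0.84, 1.27 and 0.86). Lower ones were POSTN, CA2 (-1.18, -1.30 and -0.66), CST6 (-0.97, -2.94 and -1.96) and SDR16C5, a retinol dehydrogenase (-0.91, -0.85 and -0.74). The heat shock gene HSP90AA1 (-0.67, -0.83 and -0.92) and COL17A1 (-0.88, -1.97 and -0.98) were lower too. These 3 animals do not include those with the lowest T cell and class II levels at 24 h. The T cell median in this fit was -0.18, against -0.48 over all arrays, and the reason for this shift was not tested.

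Whether the 24 h response was particular to susceptible skin was tested as the difference of responses, 24 h minus 0 h in susceptible animals less the same in resistant ones. With limma 0 of 13809 probe sets (0.0%) passed (smallest adjusted p = 0.9999), 255 (1.85%) had an unadjusted p under 0.05, and 187 of these (1.35% of those tested) were below 0. Among genes with 1 symbol SEMA4A had the smallest p. Its difference was -0.76 ± 0.21 in susceptible skin and 0.19 ± 0.18 in resistant skin (SE), a difference of responses of -0.95 ± 0.28 (SE, unadjusted p = 0.00193). USP28, a deubiquitinase, differed by -0.43 ± 0.21 in susceptible and 0.50 ± 0.18 in resistant skin (SE; difference of responses -0.92 ± 0.28), and SPICE1 by -0.46 ± 0.16 and 0.21 ± 0.14 (SE; -0.67 ± 0.21). Of the 318 probe sets with an unadjusted p under 0.05 in susceptible skin, 198 (62.3%) had the same sign in resistant skin, where 56.4% of all probe sets did. An unadjusted p under 0.05 with the same sign in both was seen in 31, which is 9.75% of the susceptible ones and 4.75% of the 652 resistant ones.

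By list, the basal keratinocyte median was -0.50 in susceptible and 0.20 in resistant skin, and COL17A1 differed by -1.02 ± 0.46 in susceptible and 0.35 ± 0.40 in resistant skin (SE; difference of responses -1.37 ± 0.61, unadjusted p = 0.0335, limma adjusted p = 0.9999). The sebaceous and lipid list had medians of -0.53 in susceptible and 0.17 in resistant skin, and 4 of its 13 genes had an unadjusted p under 0.05 for the difference of responses (1.85% of all probe sets did). These were ACSL1, which activates long-chain fatty acids (-0.53 ± 0.39 in susceptible and 0.88 ± 0.33 SE in resistant skin), SOAT1, which esterifies cholesterol, ELOVL4, which extends very long fatty acids, and FAR2. The adipocyte median was 0.37 in susceptible and -0.22 in resistant skin. The T cell medians were -0.48 in susceptible and -0.14 in resistant skin, and ZAP70 differed by -1.06 ± 0.44 in susceptible and 0.25 ± 0.37 in resistant skin (SE; unadjusted p = 0.0313 for the difference of responses). Heat shock genes had medians below 0 in both phenotypes, -0.26 in susceptible and -0.38 in resistant skin. The T cell list averaged 8.19 at 0 h and 7.68 at 24 h in susceptible skin, against 7.72 and 7.62 in resistant skin. ZAP70 averaged 7.87 and 6.81 in susceptible skin, against 6.68 and 6.93 in resistant skin. In the same order the sebaceous list averaged 10.6 and 10.09, against 9.99 and 10.4. The basal keratinocyte list averaged 12.01 and 11.45, against 11.65 and 11.87. For the T cell list, ZAP70 and the sebaceous list the phenotypes differed more at 0 h than at 24 h. The sebaceous list was higher in susceptible skin at 0 h and in resistant skin at 24 h. None of the differences of responses above passed the test over all probe sets.

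The 5 arrays of susceptible skin at 48 h, which are set against the same 0 h arrays and so are no separate support, show the level of some of these genes a day later. SAA3 was at 10.19, 12.87 and 13.98 (lowest, median and highest) at 48 h. SEMA4A was at 7.45, 7.63 and 7.77, CD3G at 7.12, 7.66 and 8.58, and COL17A1 at 10.46, 11.66 and 12.35. The 48 h median of SAA3 was near that of 24 h, and the 48 h medians of SEMA4A, CD3G and COL17A1 lay between those of 0 h and 24 h.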

How the data were processed

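RNA of skin biopsies was amplified and labelled with biotin from 50 ng, per the labels' protocols. The authors deposited log2 signals made with MAS5, per the submitters' processing notes, which name no version. The 2% trimmed mean of the linear signal was the same in every array. They were used as deposited. Precision is limited by how many arrays a group has.

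Leaving out 112 control probe sets of 24128 gave 24016, of which 13809 lay at or above their array's median in at least 3 arrays. A gene symbol came from the supplied annotation: 13292 probe sets had 1, 86 several and 10638 none. No coordinates or sequences are given. In limma 3.58.1 (R 4.3.3) 6 group means were fitted to all 30 arrays (lmFit, eBayes with an intensity trend, 24 residual degrees of freedom), two-sided, with Benjamini-Hochberg adjustment over the 13809 probe sets and a threshold of 0.05. Within a group, each array is of another animal, per the labels.

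The comparison, its gene lists and the rule for named genes were chosen with earlier results of these data known. The rule named up to 10 genes of smallest p in each direction, the 4 of smallest p in each list with any gene at an unadjusted p under 0.05, the cell type markers, and the 3 of smallest p for the difference of responses; other genes are marked where they are named. A simulation with known changes was used to check the fit: it gave 11 false calls where 100 probe sets were shifted by 1 log2 unit and 100 by 2. With none shifted it gave 0 calls and 708 of 13809 at an unadjusted p under 0.05. Its noise was independent between arrays and between probe sets, with no term for the animal, so it checks the fit only. Animal numbers were checked on the 100 probe sets that varied most between animals relative to within them at 24 h and 48 h: the 0 h arrays of animals 9, 10 and 11 correlated with the later arrays of their own number at 0.87, 0.92 and 0.80, and with any other at most at 0.27, 0.14 and 0.24. So susceptible numbers were taken to pair samples and resistant ones were not. Alternatives tried were quantile normalization, a filter left out, centring of each array on its median, an offset of 16 on the linear signal, the animal as a random or fixed block, fewer arrays, no trend, array weights, and leaving out each array. Plots used matplotlib 3.10.9 in Python 3.11.15.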

Additional observations from a re-analysis of the deposited data

Results flagged for a closer look

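Among the 6 arrays at 24 h, 11 values lay far from the other 5 by Dixon's test at the 95% level (gap over range above 0.625), of 78 genes and 34 list means tested. Chance alone flags about 1 in 20 groups. Animal 12 gave 5 of them: ST13 at 11.22 (others 10.78 to 10.87), EXT1 at 8.37 (8.65 to 8.72), the suprabasal keratin KRT10 at 10.11 (11.60 to 12.36), and the dermal collagens COL1A2 at 12.62 (14.35 to 15.19) and COL3A1 at 12.78 (14.69 to 15.45). Animal 10 gave the mean of the immediate early list, at 12.43 (9.80 to 10.47), and the chemokine CCL8 at 7.52 (6.65 to 6.82). Animal 8 had the lowest SAA3, at 10.92 (12.19 to 12.93), and the highest FAR2, at 10.87 (5.80 to 6.70). Animal 13 had the lowest GPATCH1, at 7.43 (8.11 to 8.38), and animal 9 the lowest TYRP1, at 6.34 (10.54 to 12.70).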

How the results depend on the processing

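The count of called probe sets was 0 for 24 h against 0 h and for the difference of responses under each alternative that was run, so no call was lost or gained. The number at an unadjusted p under 0.05, 318 in the fit reported, was 732 with no filter on low values (which tests 24016 probe sets), 655 with array weights and 1013 with the replicate block on the 3 animals in both groups. With the replicate block over all arrays it was 409 (random, correlation 0.143) and 351 (fixed); the block changed no other call. Leaving out single arrays gave 201 to 524: 201 without animal 10 at 0 h and 524 without animal 9 at 0 h (smallest adjusted p = 0.369). Quantile normalization gave 318, centring 298, the offset 320, only the 9 arrays 334 and no trend 319. The cause of these shifts was not tested. For the difference of responses the 255 became 679 with no filter, 524 with array weights and 409 without animal 9 at 0 h. With 3 arrays at 0 h, a difference of 1 log2 unit in a gene of wide spread is within the error.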

Other observations

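Gene lists not described above held further differences at 24 h of infestation, none of which passed the test; the genes named here were chosen after their values were seen. All 9 genes of leukocyte adhesion were below 0 (52.6% of all probe sets were), with a median of -0.17, or -0.33 without animal 9 at 24 h. Among them were the integrin chain ITGAL (-0.55 ± 0.35 SE) and the endothelial selectin SELE (-0.43 ± 0.35 SE). The vascular ligands ICAM1 (-0.03 ± 0.36 SE) and VCAM1 (-0.10 ± 0.37 SE) were close to 0. All 5 hair follicle genes were below 0 (52.6% of all probe sets were), with a median of -0.29, or -0.17 without animal 9 at 0 h. Animal 9 alone had a median of -1.16, against 0.40 in animal 10 and 0.14 in animal 11.

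In the hypoxia and glycolysis list the median was -0.09 over 17 genes, and 0.07 without animal 11 at 0 h. NDRG1, a gene that responds to low oxygen, differed by 0.43 ± 0.24 in susceptible and -0.38 ± 0.21 in resistant skin (SE), with an unadjusted p of 0.017 for the difference of responses. The glucose transporter SLC2A1 differed by -1.07 ± 0.60 (SE), at 7.88 to 9.49 at 24 h, against 8.66, 9.38 and 11.27 at 0 h in animals 9, 10 and 11. The B cell gene MS4A1 ran between 5.47 and 11.53 at 24 h and was 9.67, 7.82 and 8.23 at 0 h, with the highest value in animal 10.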
